A study of Mus musculus with 22 samples.

Results

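Toll-like receptors are membrane receptors of the innate immune system that recognise molecules of microbes and of damaged cells. Those on the cell surface bind lipids and lipoproteins, those in endosomes bind nucleic acids, and most of them signal through the adaptor Myd88 to NF-kB and interferon regulatory factors. In adipose tissue they are known from macrophages and other immune cells, and Tlr4 also from adipocytes and their precursors. Cd14 is a co-receptor that hands lipopolysaccharide to Tlr4 and its partner Ly96. The expression of 9 Toll-like receptors (Tlr1, Tlr2, Tlr3, Tlr4, Tlr6, Tlr7, Tlr8, Tlr9 and Tlr13) and of Cd14 was followed here in inguinal/mammary white adipose tissue (IWAT) of mice carrying a breast tumor. The 10 genes were chosen by symbol from a count table of 23420 genes. All 10 were in the table, and all 10 were among the 14458 genes that passed the filter on low counts.

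The mice were wildtype C57Bl/6 females. Lean mice (5 animals) ate regular chow and obese mice (6 animals) a high fat diet for 16 weeks. At about 20 weeks of age each mouse received E0771 cells, a breast cancer line derived from a C57Bl/6 mouse, with PBS and Matrigel in the left inguinal pad, and PBS with Matrigel in the right pad. Pads were taken 2 weeks later, so each mouse gave 1 library of tumor-associated IWAT and 1 of control IWAT, 22 libraries in all. All 11 mice received tumor cells, so control IWAT is the opposite pad of an injected animal. Mice are named by the number in their label.

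In the mouse genome (build GRCm38, which is mm10), all 10 are protein-coding genes. Tlr1 (chr5:64924679-64933563) and Tlr6 (chr5:64952031-64960097) are neighbours on the minus strand and are near-identical in part: 454 of the 3332 stretches of 50 exonic bases of Tlr1 (13.6%) also occur in Tlr6. A read of 50 bases in such a stretch has no unique place, so the counts of both genes carry some uncertainty. A longer read or a read pair can still have a unique place, and the share of reads affected was not measured. Tlr7 (chrX:167304929-167330558) and Tlr8 (chrX:167242696-167264329) are also neighbours, and Tlr13 (chrX:106143204-106160493) lies on the same chromosome. Tlr2 is at chr3:83836272-83841767, Tlr4 at chr4:66827584-66930284, Tlr9 at chr9:106222598-106226883 and Cd14 at chr18:36725067-36726798. Tlr3 (chr8:45395665-45411080) overlaps an antisense gene, Gm45542, and reads of the pair can be told apart only if the counting used strand, which is not stated in the sources used here.

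Between 5759775 and 8598108 reads per library fell on genes, of which 1050 to 4627 fell on the 10 genes described here. Adipocyte markers were expressed in every library, with a summed level of 1821 to 23080 CPM (counts scaled to the library total). Libraries stood apart in immune markers and in germline genes. The summed level of 8 B cell markers was 853 and 760 CPM in control IWAT of obese mice 1 and 3, 201 CPM in tumor-associated IWAT of obese mouse 3, 83.8 CPM in control IWAT of lean mouse 2 and at most 20.5 CPM elsewhere. A list of 10 germline and embryonic genes, picked in an earlier look at these libraries, summed to 40.1 to 999.7 CPM in obese tumor-associated IWAT, to 5.99 to 85.7 CPM in obese control IWAT and to at most 9.09 CPM in lean mice. The 4 skeletal muscle markers that passed the filter on low counts summed to 918 CPM in control IWAT of obese mouse 1. For the 10 genes, calls below that rest on libraries rich in B cell markers or germline genes are given with and without them, though not each with its value. Marker genes and the other genes of the pathway are given over all libraries only.

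Upstream sequences of 4 genes are shown because the results below turn on them: Tlr13, which had the largest log2 fold change of the 10 in each tumor and diet comparison, Tlr2, which was called higher with the tumor and not between diets, and Tlr1 and Tlr9, which shared the same outlying libraries. Each window is from RefSeq's set on GRCm38.p6 and lies before both the RefSeq and the GENCODE start, on the strand of the gene. Entries were found for 7 of the 10 genes, and Tlr4, Tlr7 and Cd14 had none. Capitals mark GAGGAAG, the core that PU.1 (the myeloid and B cell factor Spi1) binds, in Tlr13, Tlr9 and Tlr1, and an NF-kB palindrome, GGGAA followed at once by its reverse complement, in Tlr2. The windows are chrX:106143025-106143203 (plus strand) for Tlr13, chr9:106222348-106222597 (plus strand) for Tlr9, chr5:64933564-64933808 (minus strand) for Tlr1 and chr3:83841768-83841858 (minus strand) for Tlr2.
Tlr13: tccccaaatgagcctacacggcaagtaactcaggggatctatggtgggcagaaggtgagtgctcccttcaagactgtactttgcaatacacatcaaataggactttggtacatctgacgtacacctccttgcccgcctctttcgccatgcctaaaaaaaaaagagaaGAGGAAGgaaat
Tlr9: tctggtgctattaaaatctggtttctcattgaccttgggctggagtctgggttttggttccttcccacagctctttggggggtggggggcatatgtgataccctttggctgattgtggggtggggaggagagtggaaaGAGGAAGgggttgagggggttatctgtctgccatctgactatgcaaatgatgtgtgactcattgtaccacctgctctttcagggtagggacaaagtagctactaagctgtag
Tlr1: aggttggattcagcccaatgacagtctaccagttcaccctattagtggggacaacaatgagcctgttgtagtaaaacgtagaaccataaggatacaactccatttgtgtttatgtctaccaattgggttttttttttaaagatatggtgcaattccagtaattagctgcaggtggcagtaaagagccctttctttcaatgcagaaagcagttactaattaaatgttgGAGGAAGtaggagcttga
Tlr2: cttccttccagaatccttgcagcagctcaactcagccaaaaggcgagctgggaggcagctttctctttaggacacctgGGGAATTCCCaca
The first base of the capitals lies 83 bases before the RefSeq start in Tlr13, 112 in Tlr9, 23 in Tlr1 and 172 in Tlr2. Searched on both strands, GAGGAAG occurs in 10.6% and the palindrome in 0.0335% of 32851 windows of 250 bases before RefSeq starts. The interferon regulatory factor type, GAAA repeated after 2 free bases, is in 2.98% of windows and was found in an alternative window of Tlr6, which holds 2 matches that overlap each other. Tlr8 and Tlr3 had none of the 3 in their windows, and neither had an alternative window of Tlr1. The 3 sequences were chosen after the windows had been read, and a match is a description of the sequence only.

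Expression levels are given as CPM with TMM-normalised library totals and are compared between genes only per kb of exon. In control IWAT of lean mice, Cd14 (16.9 ± 3.99 CPM per kb, SD, 5 mice) and Tlr4 (14.8 ± 0.766 CPM per kb, SD, 5 mice) were highest, and their ranges over libraries overlapped each other but not that of the next gene, Tlr3 (6.01 ± 0.903 CPM per kb, SD, 5 mice). Tlr6 was lowest in each of the 4 groups, at 0.703 ± 0.179 CPM per kb (SD, 5 mice) in lean control IWAT. Between these ends, Tlr8, Tlr2, Tlr7, Tlr1, Tlr9 and Tlr13 followed each other at 4.83 to 1.49 CPM per kb, each overlapping its neighbour in this order. In lean tumor-associated IWAT, Cd14 (22.9 ± 5.79 CPM per kb, SD, 5 mice) and Tlr4 (21.6 ± 5.22 CPM per kb, SD, 5 mice) again led, with Tlr8 next at 12.1 ± 3.85 CPM per kb (SD, 5 mice). In obese control IWAT, Tlr4 (16.6 ± 1.64 CPM per kb, SD, 6 mice) stood above Cd14 (13.2 ± 5.71 CPM per kb, SD, 6 mice) and Tlr8 (8.17 ± 0.614 CPM per kb, SD, 6 mice), each overlapping the next. The order was different in obese tumor-associated IWAT. There Tlr4 (21.9 ± 7.82 CPM per kb, SD, 6 mice), Tlr8 (21.8 ± 5.50 CPM per kb, SD, 6 mice) and Tlr13 (21.2 ± 5.65 CPM per kb, SD, 6 mice) stood at the top with overlapping ranges. Tlr13 was at rank 9 of the 10 genes in lean control IWAT and at rank 3 here.

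**Figure D1:**
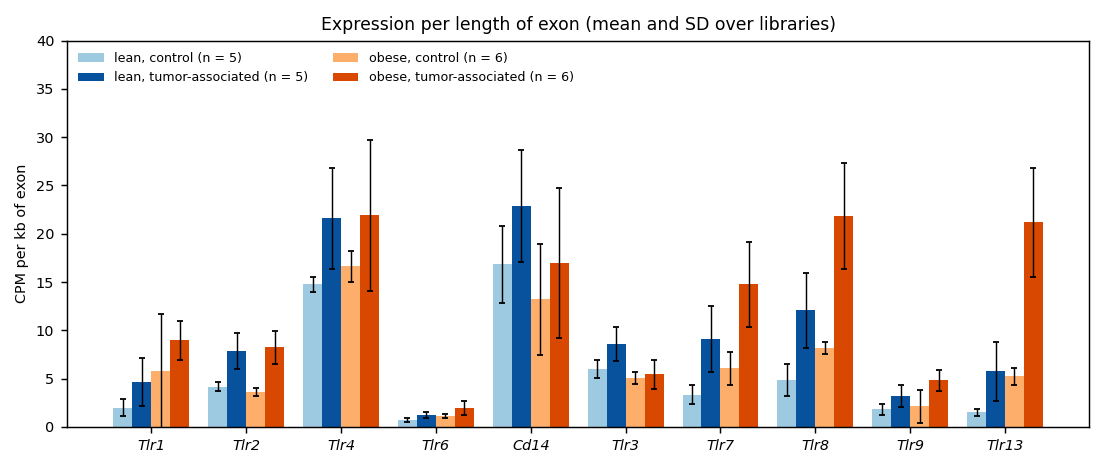
Bars are the mean CPM per kb of exon of each gene in the 4 groups (5 lean or 6 obese libraries each), and lines are the SD. Tlr4 and Cd14 are high in all groups, whereas Tlr8 and Tlr13 reach the level of Tlr4 in obese tumor-associated IWAT, at 21.8 and 21.2 CPM per kb.

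The first question was how the tumor-bearing side compared with the opposite side of the same mice. In lean mice Tlr2, Tlr7, Tlr8 and Tlr13 were called higher in tumor-associated IWAT, which is 4 of 10 genes against 3.27% of all genes tested (edgeR's quasi-likelihood test, Benjamini-Hochberg adjusted p under 0.05). None was called lower, against 0.913% of all genes. In obese mice 6 of 10 were called higher, against 26.8% of all genes: these 4 and Tlr6 and Tlr9. The background was much higher in obese mice, where 54.5% of all genes were called in either direction. Of the 10 genes none was called lower there, against 27.7% of all genes. The median log2 fold change of the 10 genes was 0.87 in lean and 1.01 in obese mice, and that of all genes 0.01 and -0.02. Libraries of the tumor-associated and control groups did not overlap for Tlr2, Tlr3 and Tlr13 in lean mice, and for Tlr2, Tlr7, Tlr8 and Tlr13 in obese mice, with the tumor-associated group on top; 5.33% and 9.95% of all genes were separated in this way.

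**Figure D2:**
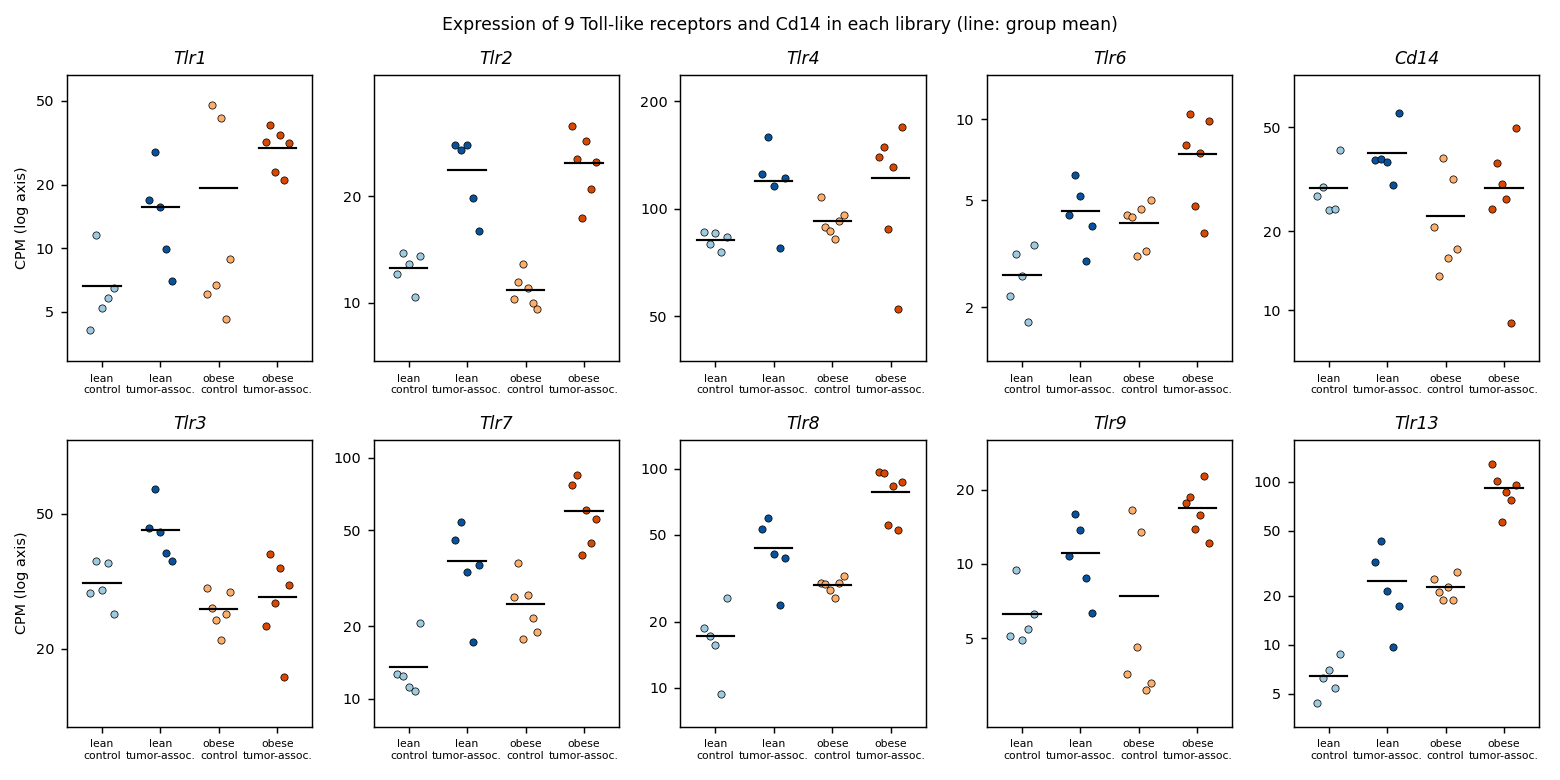
Each point is the CPM of 1 library on a log axis, in lean control, lean tumor-associated, obese control and obese tumor-associated IWAT, and the line is the group mean. The mean of Tlr13 is 6.41 CPM in lean control and 91.2 CPM in obese tumor-associated IWAT, and control IWAT of obese mice holds 2 libraries far above the other 4 for Tlr1 and Tlr9.

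Markers of several cell types differed between the pads as well. Of 13 macrophage markers (among them Emr1, Csf1r, Mertk and C1qa), 9 were called higher in tumor-associated IWAT of lean and 11 of obese mice, with none called lower, and all 13 had counts in every library. Their summed level was 935 to 1890 CPM in lean control, 2013 to 4270 CPM in lean tumor-associated, 1449 to 1916 CPM in obese control and 1980 to 5649 CPM in obese tumor-associated IWAT. Fibroblast markers summed to 6064 to 8924 CPM in lean control, 12560 to 18848 CPM in lean tumor-associated, 4946 to 10902 CPM in obese control and 5030 to 17918 CPM in obese tumor-associated IWAT. Of these 8 markers, the collagens Col1a1, Col1a2 and Col3a1 were called higher in both diets (log2 fold change 1.13, 1.19 and 1.27 in lean, 1.21, 0.94 and 0.96 in obese mice), and Dcn and Dpt were called lower in obese mice (-0.89 and -0.73). All 8 adipocyte markers were called lower in obese mice (log2 fold change -1.79 to -0.90) and none in lean mice. Of 8 endothelial and of 8 epithelial markers, 6 each were called lower and none higher in obese mice. None of either list was called in lean mice. Of 8 neutrophil markers only Csf3r passed the filter on low counts. Csf3r ranged from 3.37 to 25.2 CPM over all libraries and was called higher in both diets (1.34 and 1.60). The part of these cell types in the results below was not tested. In tissue libraries such as these, more cells of a type and more RNA per cell cannot be told apart.

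Among the surface receptors, Tlr2 forms the receptor for bacterial lipoproteins together with Tlr1 or Tlr6. It was 12.1, 13.8, 12.9, 10.4 and 13.6 CPM in control IWAT of lean mice 0, 2, 3, 6 and 9, and 27.9, 27.0, 27.8, 19.8 and 15.9 CPM in their tumor-associated IWAT. In obese mice it ranged from 9.60 to 12.9 CPM (median 10.6) in control and from 17.4 to 31.4 CPM (median 25.2) in tumor-associated IWAT. Every tumor-associated library of both diets thus lay above every control library. The log2 fold change was 0.92 (standard error, SE, 0.17, edgeR adjusted p = 0.00292) in lean and 1.19 (SE 0.15, edgeR adjusted p = 1.08e-05) in obese mice, with a rise in 5 of 5 and 6 of 6 mice.

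Tlr6 was the least abundant of the genes, with 10 to 81 counts in a library, which limits its precision. It was 2.21, 3.15, 2.60, 1.76 and 3.39 CPM in lean control IWAT (mice 0, 2, 3, 6 and 9) and 4.39, 6.22, 5.16, 2.96 and 4.02 CPM in lean tumor-associated IWAT. In obese mice the range was 3.10 to 5.01 CPM (median 4.36) in control and 3.79 to 10.5 CPM (median 7.75) in tumor-associated IWAT. It was higher in the tumor-associated pad of every mouse, although the groups overlapped. The call was made in obese mice (log2 fold change 0.84, SE 0.24, edgeR adjusted p = 0.00679) and not in lean mice (0.79, SE 0.28, edgeR adjusted p = 0.128). With the mouse as a block, the lean change passed as well (0.79, SE 0.20, edgeR adjusted p = 0.042). It was also called without the 3 obese tumor-associated libraries highest in germline genes.

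Tlr1, the other partner of Tlr2, was not called in either diet. Its level was 4.06, 11.5, 5.21, 5.81 and 6.44 CPM in lean control IWAT and 17.0, 28.6, 15.6, 9.91 and 6.95 CPM in lean tumor-associated IWAT (mice 0, 2, 3, 6 and 9), a log2 fold change of 1.25 with a SE of 0.57 (edgeR adjusted p = 0.281). In obese mice 0, 1, 2, 3, 4 and 8 it was 6.04, 47.7, 6.69, 41.7, 4.60 and 8.88 CPM in control and 31.8, 38.4, 23.0, 34.4, 21.0 and 31.5 CPM in tumor-associated IWAT. The 2 high control libraries were those of mice 1 and 3, in which B cell markers summed to 853 and 760 CPM, and T cell markers to 347 and 367 CPM. In these 2 mice the tumor-associated pad was lower by 0.31 and 0.28 on the log2 scale, while it was higher by 1.74 to 2.34 in the other 4. The log2 fold change over the 6 obese mice was 0.63 (SE 0.49, edgeR adjusted p = 0.282). Without these 2 control libraries it was 2.18 (SE 0.35, edgeR adjusted p = 0.000136), and with the mouse as a block 1.21 (SE 0.39, edgeR adjusted p = 0.0216). The lean change was called without those 2 libraries too (1.23, SE 0.33, edgeR adjusted p = 0.0379). All groups share 1 estimate of the spread in this fit.

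Tlr4, the lipopolysaccharide receptor, was called in neither diet. It was 85.8, 79.8, 85.3, 75.7 and 83.4 CPM in lean control and 125.4, 159.2, 115.5, 77.9 and 121.6 CPM in lean tumor-associated IWAT (mice 0, 2, 3, 6 and 9). In obese mice it ranged from 82.2 to 108.2 CPM (median 90.7) in control and from 52.4 to 169.8 CPM (median 135.5) in tumor-associated IWAT. The lowest value, 52.4 CPM, was that of obese mouse 4, whose tumor-associated library also had the lowest macrophage sum of its group (1980 CPM) and the highest germline gene sum (999.7 CPM). The log2 fold changes were 0.55 (SE 0.22, edgeR adjusted p = 0.197) in lean and 0.40 (SE 0.20, edgeR adjusted p = 0.0957) in obese mice, higher in 5 of 5 and 5 of 6 mice. Without tumor-associated IWAT of obese mouse 4, both were called: 0.53 in lean (edgeR adjusted p = 0.0469) and 0.54 in obese mice (edgeR adjusted p = 0.00566). Both were also called without the 3 obese tumor-associated libraries highest in germline genes.

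Cd14 was 27.2, 29.6, 24.0, 24.3 and 40.9 CPM in lean control and 37.4, 37.6, 36.7, 30.0 and 56.7 CPM in lean tumor-associated IWAT (mice 0, 2, 3, 6 and 9). In obese mice it was 13.5 to 38.2 CPM (median 19.0) in control and 8.93 to 49.7 CPM (median 28.4) in tumor-associated IWAT. The lean pads of a mouse differed by a similar amount in each animal, by 0.30 to 0.60 on the log2 scale, whereas the obese pairs spread from -1.80 in mouse 4 to 1.52 in mouse 8. No call resulted, with log2 fold changes of 0.44 (SE 0.33, edgeR adjusted p = 0.624) and 0.36 (SE 0.30, edgeR adjusted p = 0.323).

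Tlr13, Tlr8 and Tlr7 are endosomal receptors, and all were called in both diets. Tlr13 recognises bacterial ribosomal RNA. In lean mice 0, 2, 3, 6 and 9 it was 4.41, 6.30, 7.04, 5.46 and 8.82 CPM in control and 32.3, 43.4, 21.3, 9.65 and 17.3 CPM in tumor-associated IWAT. In obese mice it ranged from 18.8 to 28.1 CPM (median 21.9) in control and from 56.9 to 129.4 CPM (median 90.9) in tumor-associated IWAT. The groups were apart in both diets. The log2 fold change was 1.95 (SE 0.31, edgeR adjusted p = 0.000892) in lean mice, where single mice went from 0.79 to 2.79, and 2.02 (SE 0.27, edgeR adjusted p = 1.31e-05) in obese mice, where they went from 1.58 to 2.33.

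Tlr8 was 18.7, 17.3, 15.6, 9.33 and 25.6 CPM in lean control and 53.2, 59.5, 40.6, 23.8 and 39.2 CPM in lean tumor-associated IWAT. In obese mice the control libraries lay close together, at 25.7 to 32.2 CPM (median 29.9), and the tumor-associated ones at 52.2 to 96.6 CPM (median 85.0). The lean groups met at a single point, control IWAT of mouse 9 (25.6 CPM) lying above tumor-associated IWAT of mouse 6 (23.8 CPM), and the obese groups were apart. The log2 fold changes were 1.32 (SE 0.24, edgeR adjusted p = 0.00311) and 1.42 (SE 0.22, edgeR adjusted p = 4.7e-05).

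Tlr7, a sensor of single-stranded RNA next to Tlr8 on chromosome X, was 12.7, 12.4, 11.2, 10.7 and 20.5 CPM in lean control and 45.4, 54.1, 33.4, 17.1 and 36.0 CPM in lean tumor-associated IWAT (mice 0, 2, 3, 6 and 9). In obese mice it ranged from 17.7 to 36.6 CPM (median 24.0) in control and from 39.4 to 84.6 CPM (median 58.1) in tumor-associated IWAT. As for Tlr8, only 1 lean control library (mouse 9) reached into the tumor-associated range, and the obese groups did not overlap. Its log2 fold change was 1.46 (SE 0.28, edgeR adjusted p = 0.00491) in lean and 1.28 (SE 0.25, edgeR adjusted p = 0.000369) in obese mice, and it was higher in 5 of 5 and 6 of 6 mice.

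Tlr9, the receptor for unmethylated CpG DNA, was 5.11, 9.45, 4.90, 5.46 and 6.27 CPM in lean control and 10.8, 15.9, 13.7, 8.75 and 6.33 CPM in lean tumor-associated IWAT. In obese mice 0, 1, 2, 3, 4 and 8 it was 3.59, 16.5, 4.59, 13.5, 3.07 and 3.29 CPM in control and 17.6, 18.6, 13.9, 15.7, 22.7 and 12.1 CPM in tumor-associated IWAT. The same 2 control libraries as for Tlr1, those of mice 1 and 3, stood within the tumor-associated range. The rise was called in obese mice (log2 fold change 1.17, SE 0.37, edgeR adjusted p = 0.0118) and the lean difference of 0.83 was not (SE 0.41, edgeR adjusted p = 0.331). Without the 2 libraries the obese change was 2.18 (SE 0.27, edgeR adjusted p = 1.65e-05). Without the 4 libraries above 50 CPM of B cell markers, the lean difference was called (edgeR adjusted p = 0.0382). Without tumor-associated IWAT of obese mice 0, 2 and 4, which had the largest germline gene sums, the obese change was 1.05 (SE 0.45) and missed the threshold (edgeR adjusted p = 0.0805).

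Tlr3, which binds double-stranded RNA and signals through Ticam1 rather than Myd88, stood apart from the other endosomal receptors. It was 29.1, 36.2, 29.9, 35.9 and 25.3 CPM in lean control and 45.4, 59.1, 44.3, 38.2 and 36.3 CPM in lean tumor-associated IWAT (mice 0, 2, 3, 6 and 9). The 2 lean groups met without overlapping, and the log2 fold change of 0.51 (SE 0.18) was not called (edgeR adjusted p = 0.128). In obese mice it ranged from 21.2 to 30.2 CPM (median 25.9) in control and from 16.5 to 38.2 CPM (median 29.1) in tumor-associated IWAT, a log2 fold change of 0.12 (SE 0.17, edgeR adjusted p = 0.549). Without tumor-associated IWAT of obese mouse 4, the lean change was called (0.50, edgeR adjusted p = 0.0465). Without the 3 libraries highest in germline genes, the lean change was called as well, and so was the obese change (0.39, SE 0.15, edgeR adjusted p = 0.048).

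**Figure D3:**
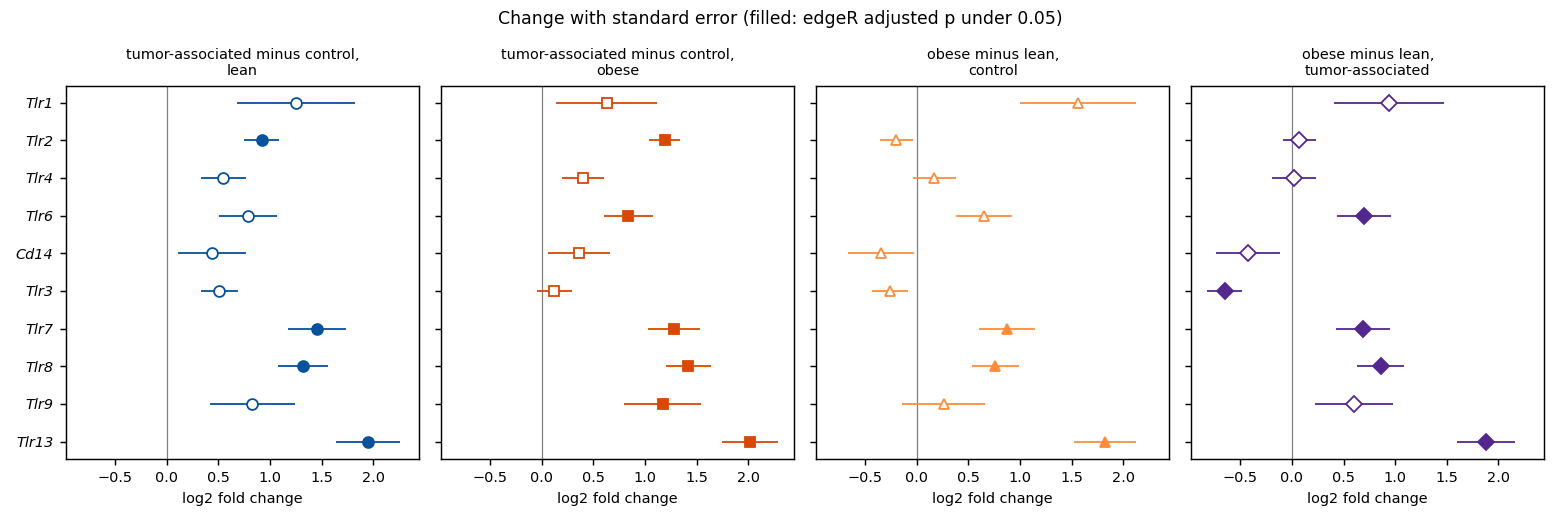
Points are edgeR's log2 fold changes with their standard errors (SE) for the 10 genes in 4 comparisons, and filled symbols have an adjusted p under 0.05. Tlr13 lies furthest right in each panel, with 1.95, 2.02, 1.82 and 1.88, and Tlr3 is the 1 gene called lower, at -0.65 in obese against lean tumor-associated IWAT.

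The second question was how obese and lean mice differed within each kind of pad. In control IWAT, Tlr7, Tlr8 and Tlr13 were called higher in obese mice, 3 of 10 genes against 9.54% of all genes, and none was called lower, against 7.53% of all genes. Tlr13 was 3.53-fold higher (log2 fold change 1.82, SE 0.30, edgeR adjusted p = 0.000393), and the highest lean library (8.82 CPM) lay far below the lowest obese library (18.8 CPM). Tlr8 was also separated, by 25.6 against 25.7 CPM, whereas Tlr7 overlapped; 7.44% of all genes were separated upwards in this comparison. The log2 fold changes were 0.76 for Tlr8 (SE 0.23, edgeR adjusted p = 0.0296) and 0.87 for Tlr7 (SE 0.27, edgeR adjusted p = 0.0316).

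The calls of Tlr7 and Tlr8 in control IWAT were near the threshold, and held in 15 and 18 of the 22 fits that left out 1 library. All losses were in fits that left out a control library. Fits that left out a tumor-associated library kept all libraries compared here, so they are a weak check of these calls. The call of Tlr7 was lost without control IWAT of lean mouse 0, 2, 3 or 6, or of obese mouse 0, 1 or 3 (log2 fold change 0.72 to 0.85, edgeR adjusted p 0.0527 to 0.0828). That of Tlr8 was lost without control IWAT of lean mouse 2, 3 or 6 or of obese mouse 8 (0.60 to 0.76, edgeR adjusted p 0.0518 to 0.0855). Tlr13 was called in all 22 fits that left out 1 library (1.70 to 1.96). Without the 2 control libraries rich in B cell markers, Tlr13 was the only gene of the 10 called (1.83, edgeR adjusted p = 0.0015), Tlr7 was 0.64 (edgeR adjusted p = 0.16) and Tlr8 0.79 (edgeR adjusted p = 0.0566).

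The diet difference of Tlr1 in control IWAT was seen in the same 2 libraries. Over all libraries, Tlr1 was 6.61 ± 2.89 CPM (SD, 5 mice) in lean and 19.3 ± 19.8 CPM (SD, 6 mice) in obese control IWAT, a log2 fold change of 1.56 (SE 0.56, edgeR adjusted p = 0.0586). It was called without control IWAT of lean mouse 2 or of obese mouse 0, 2, 4 or 8 (1.70 to 1.85, edgeR adjusted p 0.029 to 0.0497). Without the 2 libraries it was -0.01 (SE 0.36, edgeR adjusted p = 0.993). Tlr9 went from 0.26 (SE 0.40, edgeR adjusted p = 0.706) to -0.77 (SE 0.27, edgeR adjusted p = 0.0691). Of the other surface receptors, Tlr6 was 0.65 (SE 0.27, edgeR adjusted p = 0.101), Tlr2 -0.20 (SE 0.16, edgeR adjusted p = 0.422) and Tlr4 0.17 (SE 0.21, edgeR adjusted p = 0.632), none of them called. Tlr6 was called here without the 3 obese tumor-associated libraries highest in germline genes. B cells are known to express both Tlr1 and Tlr9. B cell markers summed to 3.52 to 83.8 CPM in lean control, 7.42 to 17.9 CPM in lean tumor-associated, 4.45 to 852.7 CPM in obese control and 9.25 to 200.5 CPM in obese tumor-associated IWAT. Other immune markers were high in the same 2 libraries. T cell markers summed to 347 and 367 CPM, against 37.5 to 51.4 CPM in the other obese control libraries. Dendritic cell markers summed to 188 and 191 CPM, against 73.7 to 97.8 CPM. The part of these cell types in these values was not tested beyond leaving the libraries out.

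**Figure D4:**
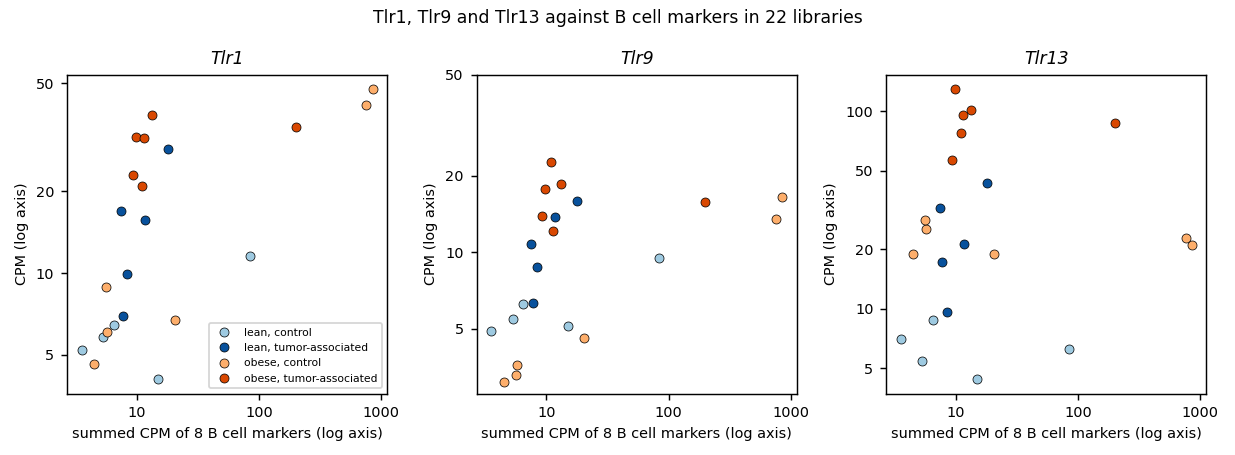
Each point is 1 of the 22 libraries, with the summed CPM of 8 B cell markers on the x axis and the CPM of Tlr1, Tlr9 or Tlr13 on the y axis, both log axes, coloured by group. The 2 obese control libraries at 760 and 853 CPM of B cell markers are the highest obese control libraries for Tlr1 (41.7 and 47.7 CPM) and Tlr9 (13.5 and 16.5 CPM), and lie among the others of their group for Tlr13 (22.7 and 21.1 CPM).

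In tumor-associated IWAT, 4 genes were called higher in obese mice, against 24.7% of all genes, and 1 was called lower, against 22.4% of all genes. The paper reports larger tumors in the obese mice. Diet and tumor size therefore cannot be told apart in this comparison, nor in the obese minus lean tumor change below. Tlr13 was 24.8 ± 13.2 CPM (SD, 5 mice) in lean and 91.2 ± 24.3 CPM (SD, 6 mice) in obese mice, a 3.69-fold difference (log2 fold change 1.88, SE 0.28, edgeR adjusted p = 4.46e-05). It was the only gene of the 10 whose lean and obese libraries did not overlap, a separation upwards that 11.0% of all genes had. Tlr8 (0.86, SE 0.23, edgeR adjusted p = 0.00415), Tlr6 (0.70, SE 0.26, edgeR adjusted p = 0.0302) and Tlr7 (0.69, SE 0.26, edgeR adjusted p = 0.0332) were higher as well. Tlr3 was lower in obese mice, at 28.5 ± 7.83 CPM (SD, 6 mice) against 44.7 ± 8.94 CPM (SD, 5 mice), and fell by 0.65 on the log2 scale (SE 0.17, edgeR adjusted p = 0.00436). All 8 epithelial markers were lower in the same comparison (log2 fold change -2.79 to -1.14). So were 3 of 8 fibroblast markers, with none of either list called higher. Of 13 macrophage markers, 4 were called higher and none lower. The part of these cell types in the values of the 10 genes was not tested.

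Among the receptors called in tumor-associated IWAT, Tlr3, Tlr8 and Tlr13 were called in each of the 22 fits that left out 1 library. Tlr6 lost its call without tumor-associated IWAT of lean mouse 0, 6 or 9 or of obese mouse 0, 1 or 8 (0.58 to 0.69, edgeR adjusted p 0.0514 to 0.0864). Tlr7 lost it without that of lean mouse 3, 6 or 9 or of obese mouse 0 or 1 (0.51 to 0.68, edgeR adjusted p 0.0608 to 0.0902). Tlr3 was -0.37 (SE 0.15, edgeR adjusted p = 0.0781) without the 3 obese tumor-associated libraries with the largest germline gene sums. Tlr6 was not called without the 4 libraries above 50 CPM of B cell markers. Tlr1 (0.94, SE 0.53, edgeR adjusted p = 0.146) and Tlr9 (0.60, SE 0.38, edgeR adjusted p = 0.207) were not called, but both were without the 2 control libraries rich in B cell markers (0.94, edgeR adjusted p = 0.0152, and 0.60, edgeR adjusted p = 0.0343). Tlr2 and Tlr4 had closely similar means in both diets. Tlr2 was 23.7 ± 5.51 CPM (SD, 5 mice) in lean and 24.8 ± 5.08 CPM (SD, 6 mice) in obese tumor-associated IWAT (log2 fold change 0.07, SE 0.16, edgeR adjusted p = 0.751), and Tlr4 119.9 ± 29.0 CPM (SD, 5 mice) and 121.7 ± 43.5 CPM (SD, 6 mice; 0.02, SE 0.21, edgeR adjusted p = 0.94). Cd14 was the other gene besides Tlr3 with a lower mean in obese mice in both kinds of pad, and was called in neither (-0.35, edgeR adjusted p = 0.494, and -0.43, edgeR adjusted p = 0.265).

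The last question was whether the tumor change itself differed between diets. For none of the 10 genes did the obese minus lean difference of the tumor change pass the test (edgeR), and none had an unadjusted p under 0.05; 4.92% of all genes were called. DESeq2 also called none of the 10. For Tlr13 the difference was 0.06 on the log2 scale (95% interval -0.80 to 0.92), for Tlr8 0.10 (-0.57 to 0.77), for Tlr7 -0.18 (-0.95 to 0.59) and for Tlr2 0.27 (-0.20 to 0.74). These intervals leave room for differences of nearly 1 log2 unit. That of Tlr3 was -0.39 (-0.90 to 0.12). Tlr1 (-0.61, from -2.17 to 0.95) and Tlr9 (0.34, from -0.81 to 1.48) were the least precise. Without the 2 libraries rich in B cell markers, Tlr9 was called (1.37, edgeR adjusted p = 0.0412) and Tlr1 was 0.95 (edgeR adjusted p = 0.154). Without all 4 libraries above 50 CPM of B cell markers, none was called.

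Each gene was then set against the macrophage markers in the same library, as log2 CPM minus the mean log2 CPM of the 13 markers. The markers themselves were higher by 1.23 ± 0.41 (SD, 5 mice) in the tumor-associated pad of lean mice and by 1.32 ± 0.47 (SD, 6 mice) in obese mice. Single markers spread widely around this mean, from 0.26 for Mertk to 2.48 for Fcgr1 in lean and from -0.16 for Mertk to 3.31 for Fcgr1 in obese mice (edgeR log2 fold changes). Relative to the mean, Tlr8 kept a remaining change of 0.08 ± 0.13 (SD, 5 mice) in lean and 0.06 ± 0.14 (SD, 6 mice) in obese mice. Tlr7 was close to the mean too, at 0.15 ± 0.33 (SD, 5 mice) and -0.05 ± 0.38 (SD, 6 mice). Tlr13 changed more than the marker mean in 4 of 5 lean and 6 of 6 obese mice, by 0.53 ± 0.66 (SD, 5 mice) and 0.66 ± 0.47 (SD, 6 mice). Its log2 fold changes of 1.95 and 2.02 lay within the range of the single markers. Tlr4, Tlr6, Cd14 and Tlr3 changed less than the marker mean in all 11 mice, though not less than each marker: Mertk changed less than Tlr4 and Tlr3. For Tlr4 the remainder was -0.72 ± 0.34 (SD, 5 mice) and -1.01 ± 0.21 (SD, 6 mice), and for Tlr3 -0.73 ± 0.35 (SD, 5 mice) and -1.24 ± 0.41 (SD, 6 mice). In obese mouse 4, Cd14 was 2.32 log2 units behind the marker mean. These are descriptions, with no test.

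**Figure D5:**
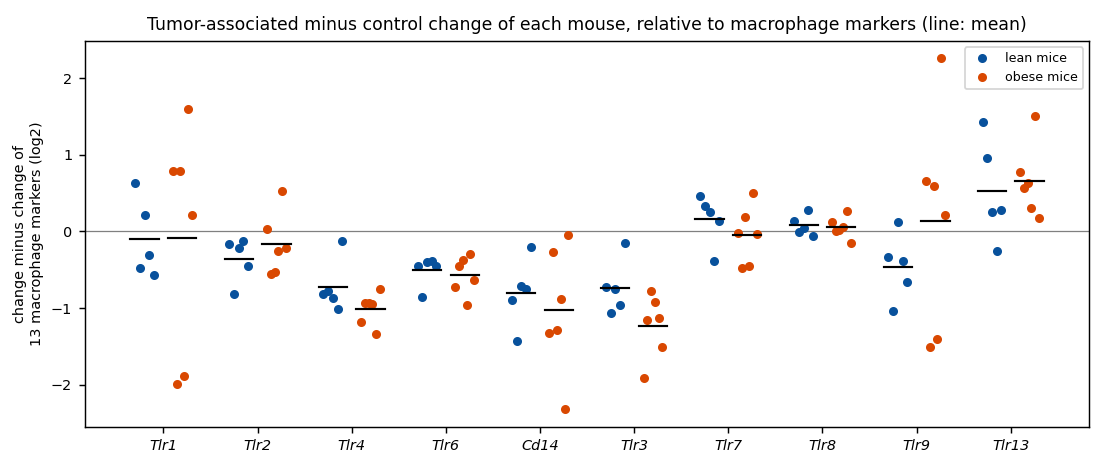
Each point is 1 mouse, with the tumor-associated minus control change of a gene minus that of the mean of 13 macrophage markers, in log2 units, and the line is the mean of the lean or obese mice. Tlr8 lies on 0 with little spread, Tlr13 above 0 in 10 of 11 mice, and Tlr4, Tlr6, Cd14 and Tlr3 below 0 in all mice.

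To find which genes had the most similar pattern, log2 CPM were centred on each gene's mean over the 22 libraries, and genes were ranked by their root mean square difference from a receptor. Among the 10 genes, Tlr7 and Tlr8 were the most alike (0.26 log2 units), followed by Tlr4 and Tlr3 (0.37), and the least alike pair was Cd14 and Tlr13 (1.56). The 3 nearest of all genes were Fcgr3, P2ry6 and Tyrobp for Tlr8 (0.22 to 0.24), and Lilrb3, Tlr8 and Tyrobp for Tlr7 (0.26 to 0.30). Fcgr3 encodes an Fc gamma receptor and Tyrobp a signalling adaptor of myeloid cells. Those of Tlr13 were the endosomal protease Lgmn, the scavenger receptor Msr1 and the haem-degrading enzyme Hmox1 (0.32 to 0.36). Those of Tlr1 were Ly9, Ptpn6 and Samsn1 (0.30 to 0.32), genes of lymphoid and other blood cells, and those of Tlr9 were Fyb, Slfn8 and Tmem173 (0.27 to 0.36). For Cd14 the nearest were Nox4, Anpep and Pdgfc (0.34 each), and for Tlr3 they were Cpne3, Marcks and Sema6d (0.22 to 0.23). Tlr4 was nearest to Itsn1, Rnf130 and Scamp2 (0.17 to 0.18), Tlr2 to Nfxl1, Lgals9 and Ddx58 (0.24 to 0.27), and Tlr6 to Rab8b, Sirpa and Tmem106a (0.17 to 0.21). A gene of small variation is near to many, and the median distance to all genes ran from 0.58 for Tlr3 to 1.45 for Tlr13.

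The remaining genes of the pathway were followed from lists. Of 13 genes for ligand delivery, chaperones and endosomal processing, 3 were called higher in tumor-associated IWAT of lean mice and 10 in obese mice, where 1 was called lower. Unc93b1, which escorts the endosomal receptors to their compartment, was called in both (log2 fold change 0.76, edgeR adjusted p = 0.0433, and 0.88, edgeR adjusted p = 0.000862). Of 4 endosomal proteases in the list, 2 were called in both diets: Lgmn rose by 1.64 and 1.90 (edgeR adjusted p = 0.000705 and 5.77e-06) and Ctss by 1.16 and 1.42 (edgeR adjusted p = 0.0233 and 0.000214). Ctsb (0.25, edgeR adjusted p = 0.603) and Ctsl (0.33, edgeR adjusted p = 0.372) were not called in lean mice, and were called with smaller changes in obese mice (0.52, edgeR adjusted p = 0.0114, and 0.53, edgeR adjusted p = 0.00871). Ly96, the partner of Tlr4, was called in obese mice (0.73, edgeR adjusted p = 0.00694) and not in lean mice (0.71, edgeR adjusted p = 0.109). Ly86, which pairs with the Toll-like protein Cd180, was called higher in obese mice (1.28, edgeR adjusted p = 0.00215).

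Of 19 adaptors and kinases, 1 was called higher in lean and 7 in obese mice, with 2 lower in obese mice. The gene called in lean mice was Myd88, from 26.7 ± 3.25 to 38.4 ± 10.4 CPM (SD, 5 mice; log2 fold change 0.53, edgeR adjusted p = 0.0475), and it was called in obese mice as well (0.88, edgeR adjusted p = 4.85e-05). Ticam2, the bridging adaptor of Tlr4, was higher in obese mice (1.24, edgeR adjusted p = 0.00106), and the kinase Irak2 fell by 1.02 on the log2 scale (edgeR adjusted p = 0.000232). Among 11 transcription factors, 1 was called higher in lean and 5 in obese mice. Irf7, which Tlr7 and Tlr9 activate and interferon induces, was 36.6 ± 6.32 CPM (SD, 5 mice) in lean control and 171.6 ± 68.0 CPM (SD, 5 mice) in lean tumor-associated IWAT (log2 fold change 2.23, edgeR adjusted p = 3.16e-06), and changed by 2.11 in obese mice (edgeR adjusted p = 3.96e-07). Irf5 (0.99, edgeR adjusted p = 0.00345) and Nfkb2 (0.59, edgeR adjusted p = 0.0266) were called in obese mice. Of 10 inhibitors of the pathway, none was called in lean mice and Socs1 alone in obese mice (1.19, edgeR adjusted p = 0.00212).

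Of 13 induced cytokine and effector genes, 11 passed the filter on low counts; Il6 and Ifnb1 did not. In lean mice Il10 was called higher (2.41, edgeR adjusted p = 0.0334) and Nos2 lower (-0.92, edgeR adjusted p = 0.0284). The level of Il10 was near the floor, at 0.335 ± 0.267 CPM in lean control and 1.78 ± 1.66 CPM in lean tumor-associated IWAT (SD, 5 mice). In obese mice 7 were called higher and 1 lower. The largest were Il1b, from 1.06 ± 0.842 to 11.6 ± 7.58 CPM (SD, 6 mice; log2 fold change 3.41, edgeR adjusted p = 3.41e-05), Cxcl10 (2.92, edgeR adjusted p = 0.000129) and Il10 (2.24, edgeR adjusted p = 0.00113). Of 8 proteins reported as endogenous ligands, 7 were tested, since S100a9 did not pass the filter, and 2 were called higher in lean and 6 in obese mice. They included the proteoglycans Vcan (1.84, edgeR adjusted p = 7.62e-05 in lean, and 2.67, edgeR adjusted p = 1.38e-07 in obese mice) and Bgn (1.22, edgeR adjusted p = 0.0044 in lean mice), and the matrix protein Tnc (2.44, edgeR adjusted p = 4.24e-05) and Saa3 (2.06, edgeR adjusted p = 0.00785) in obese mice.

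Between diets, 4 of the 13 genes for ligand delivery and processing were called higher in obese control IWAT and 6 in obese tumor-associated IWAT, none lower. Lbp, the plasma protein that carries lipopolysaccharide to Cd14, was higher in obese control IWAT (1.77, edgeR adjusted p = 0.00397), and Lgmn in both kinds of pad (1.23, edgeR adjusted p = 0.0016, and 1.49, edgeR adjusted p = 8.53e-05). Of the adaptors and kinases, 2 were higher in obese control IWAT, Irak2 (0.95, edgeR adjusted p = 0.00262) and Ikbkg (0.61, edgeR adjusted p = 0.000723). In tumor-associated IWAT 5 were higher and 1 lower, with Tbk1 (0.70, edgeR adjusted p = 0.00118) and Traf3 (0.50, edgeR adjusted p = 0.0274) the largest. The transcription factors gave no call in control IWAT and 3 higher in tumor-associated IWAT, among them Irf5 (0.79, edgeR adjusted p = 0.0225) and Nfkb2 (0.65, edgeR adjusted p = 0.0249). Of the inhibitors, Tnfaip3 (0.95, edgeR adjusted p = 0.00948) and Tnip1 (0.53, edgeR adjusted p = 0.00839) were higher in obese control IWAT, and 4 were higher in tumor-associated IWAT, with Sigirr (0.84, edgeR adjusted p = 0.0272) and Socs1 (0.80, edgeR adjusted p = 0.0347) the largest. The induced genes counted 1 and 6 calls, all higher in obese mice. The call in control IWAT was Ccl5 (2.19, edgeR adjusted p = 0.0432). Its level was 4.23 ± 2.48 CPM (SD, 5 mice) in lean and 19.2 ± 24.3 CPM (SD, 6 mice) in obese control IWAT. Single obese control libraries went from 3.10 to 54.5 CPM. Cxcl2 (3.21, edgeR adjusted p = 0.000387) and Ptgs2 (2.19, edgeR adjusted p = 0.00167) were the largest in tumor-associated IWAT. Cxcl2 was near the floor in lean tumor-associated IWAT, at 0.325 ± 0.180 CPM (SD, 5 mice). Unc93b1, Ly96 and Myd88 were called in neither diet comparison, with 0.44 (edgeR adjusted p = 0.077), 0.47 (edgeR adjusted p = 0.0847) and 0.32 (edgeR adjusted p = 0.0666) in tumor-associated IWAT. Endogenous ligands counted 2 and 5, with Saa3 (2.71, edgeR adjusted p = 0.0253) and Tnc (1.45, edgeR adjusted p = 0.0148) in control, and Tnc (2.84, edgeR adjusted p = 3e-05) and Saa3 (1.99, edgeR adjusted p = 0.0162) in tumor-associated IWAT. Saa3 was near the floor in lean control IWAT, at 0.470 ± 0.693 CPM (SD, 5 mice). In the obese minus lean tumor change, Hsp90b1, the chaperone that folds Toll-like receptors (0.57, edgeR adjusted p = 0.0463), and Hspd1 (1.36, edgeR adjusted p = 0.0463) were the 2 genes of these lists that were called. This comparison gave 1 to 3568 calls over all genes when 1 library was left out. Tlr5, Tlr11 and Tlr12, the other mouse receptors, were called in none of the 5 comparisons.

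These 6 pathway lists are read against the background of each comparison given above. In obese mice, where 54.5% of all genes were called, 7 of 19 adaptors and kinases and 1 of 10 inhibitors called higher stand beside 26.8% of all genes. The median log2 fold change in obese mice was 0.73 for the ligand delivery and processing list, 0.28 for adaptors and kinases, 0.35 for transcription factors, 0.03 for inhibitors, 1.66 for the induced genes and 1.07 for endogenous ligands, and that of all genes was -0.02. In lean mice the same medians were 0.62, 0.08, 0.21, 0.03, 0.52 and 1.22, beside 0.01 for all genes. Between diets, the share of all genes called higher was 9.54% in control and 24.7% in tumor-associated IWAT. Adaptors and kinases were near it, with 2 of 19 and 5 of 19. Transcription factors had 0 of 11 and 3 of 11, and inhibitors 2 of 10 and 4 of 10. Ligand delivery and processing had 4 of 13 and 6 of 13, induced genes 1 of 11 and 6 of 11, and endogenous ligands 2 of 7 and 5 of 7.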

How the data were processed

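RNA of IWAT, depleted of ribosomal RNA, was sequenced from 22 libraries of 11 mice, grouped by the sample labels. Per the submitters' processing notes and the methods, the authors checked reads with FastQC, filtered them with prinseq, aligned to mm10 using STAR 2.4.0f, used HTSeq for counting and deposited raw read counts per gene, not normalised. The strand setting and annotation are not given in the sources used here. Lines naming no gene stayed out: reads on no feature were 38.5% to 48.8% and ambiguous or not unique ones 15.3% to 19.2% of all. The median library held 6953882 counts on genes; a gene of few counts, such as Tlr6, carries a wide error.

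All 4 groups entered 1 fit in R 4.3.3 with edgeR 4.0.16 (TMM, default filter by group with a minimum count of 10, quasi-likelihood test, Benjamini-Hochberg adjustment over 14458 genes, threshold 0.05). Log2 CPM used a prior count of 2. Exon lengths and positions came from GENCODE. The 10 genes, the pathway and marker lists and the tests were chosen with earlier results of these data known. Named pathway genes are, per list, up to 3 largest called in each tumor comparison and 2 in each diet comparison, any called in the obese minus lean tumor change, and Ly96, Unc93b1 and Myd88; not all are printed with every value. Ctsb, Ctsl and the marker genes were named after their values were seen. Both pads come from 1 mouse, so the mouse pairs the libraries; deviations from group means correlated over 0.1 in 5 of 5 lean and 4 of 6 obese pairs (medians 0.508 and 0.168). No 2 libraries of a group agreed within sampling noise. On simulated counts for the lean tumor comparison, 50 of 110 genes changed by a log2 of 1 and 78 of 90 changed by 2 were recovered, with 9 false calls among 14339 genes. Alternatives were upper-quartile and RLE scaling, DESeq2 1.42.0, no filter, at least 10 counts in every library, the compared groups alone, the mouse as a block, each library left out, total-count CPM, and other prior counts and medians for the marker score; leaving out 2 or 4 libraries by B cell markers, or 3 by germline genes, was added after seeing the data.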

Additional observations from a re-analysis of the deposited data

Results flagged for a closer look

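In 40 sets of libraries (10 genes in 4 groups), 2 held a library further from the others than Dixon's 95% criterion allows, a rate of about 1 in 20 that chance alone gives. Cd14 was 56.7 CPM in tumor-associated IWAT of lean mouse 9, against 37.6 CPM in the next library. Tlr7 was 20.5 CPM in control IWAT of the same mouse, against 12.7 CPM in the next library. In control IWAT of this mouse Cd14 was also highest of its group (40.9 CPM), as was the macrophage marker sum (1890 CPM). The high Tlr1 and Tlr9 values in control IWAT of obese mice 1 and 3 did not meet the criterion, since 2 libraries lay together.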

How the results depend on the processing

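Tlr2, Tlr7, Tlr8 and Tlr13 were called higher in both tumor comparisons, and Tlr13 in both diet comparisons, under every alternative run. Of the 10 genes, 7 were called in lean tumor-associated IWAT without the 3 libraries highest in germline genes, against 9.35% of all genes. In the diet comparison of control IWAT, 1 was called without the 2 or the 4 libraries richest in B cell markers, against 12.1% and 8.79% of all genes. With 1 library left out 1 to 4 were called, against 11.0% to 23.8% of all genes, and DESeq2 called 4, against 21.6%. In that of tumor-associated IWAT, 3 were called under upper-quartile scaling, against 47.5% of all genes. With 1 library left out 3 to 5 were called, against 40.4% to 51.8% of all genes. In the obese minus lean tumor change, 1 was called without the 2 libraries, against 5.01% of all genes. With the mouse as a replicate block, which pairs the pads, 5 genes were called in lean, 7 in obese mice and 0 in the obese minus lean change. Of all genes, 4.63%, 53.1% and 4.18% were called in these 3 comparisons. Tlr6 in lean and Tlr1 in obese mice were added, and no other call of the 10 changed. The causes of these shifts were not tested.

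Values that changed sign were all outside the threshold. Without the 4 libraries, Tlr3 was -0.02 in the obese tumor comparison. In the diet comparison of control IWAT, Tlr1 was -0.01 without the 2 libraries, and Tlr9 -0.77 without the 2 and -0.58 without the 4. In that of tumor-associated IWAT under upper-quartile scaling, Tlr2 was -0.02 and Tlr4 -0.05, and Tlr4 was -0.02 with at least 10 counts in every library and 0 without the 4 libraries. In the obese minus lean change, Tlr1 was 0.02 and Tlr6 0 with the block, Tlr1 was 0.95 without the 2 and 0.62 without the 4 libraries, Tlr7 0.05 and 0.08, and without the 3 germline-high libraries Tlr4 was 0.16 and Cd14 0.28. With 1 library left out, Tlr9 ranged from -0.15 to 0.46 in control IWAT and, in tumor-associated IWAT, Tlr2 from -0.05 to 0.15 and Tlr4 from -0.1 to 0.17. The obese minus lean change ranged from -0.27 to 0.01 for Tlr4, -0.07 to 0.19 for Tlr6, -0.3 to 0.13 for Cd14, -0.08 to 0.26 for Tlr8 and -0.14 to 0.37 for Tlr13. Mean CPM under total-count scaling moved by less than 1 SD in 40 of 40 cases.

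Over all genes, the lean tumor comparison gave 605 calls, against 918 by DESeq2, 1437 with the compared groups alone and 1369 without the germline-high libraries, and 183 to 952 with 1 library left out. The obese minus lean change gave 711 calls, against 2365 by DESeq2, 18 with no filter, 4 without the 4 libraries, 10 without the germline-high libraries and 1 to 3568 with 1 left out. Without the germline-high libraries the obese tumor comparison gave 4849 calls against 7882, and the diet comparisons 4057 against 2468 and 4432 against 6802. Without the 4 libraries the diet comparison of control IWAT gave 1268, and 1606 without control IWAT of lean mouse 6. Under upper-quartile scaling, higher calls made up 65.7% against 78.2% in the lean tumor comparison and 42.5% against 55.9% in the diet comparison of control IWAT. Tlr6 rests on 10 to 81 and Tlr9 on 20 to 168 counts in a library.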
